A study of Mus musculus with 28 samples.

Results

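The genes next to Myt1l on mouse chromosome 12 were taken as a set of 9, by name: Pxdn, Sntg2, Tmem18, Acp1 and Sh3yl1 on one side of it, Trappc12, Adi1 and Rnaseh1 on the other, and Ttc32 farther along the same chromosome. The expression table of the embryonic cortex listed 8 of the 9 among 13846 genes, with no row for Sntg2, and the table of the adult prefrontal cortex listed all 9 among 14104 genes. Every listed member passed the filter on low values, so 8 were tested in the embryo and 9 in the adult. The set is a list of names and not every gene within a fixed distance: Eipr1 and Rps7 lie closer to Myt1l than Sh3yl1 does and are not in it. The comparisons ask whether genes linked to Myt1l differ between the genotypes.

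RNA-seq was made from a Myt1l mutant mouse line. At E14.5, an embryonic day of neuron formation, cortex was taken from 6 wild-type (CTX WT), 6 heterozygous (CTX Het) and 4 homozygous (CTX Hom) samples. By label, CTX WT held 5 females and 1 male, CTX Het 3 and 3, and CTX Hom 3 and 1. The prefrontal cortex (PFC) of adults came from 6 wild-type (Adult_PFC WT) and 6 heterozygous (Adult_PFC Het) samples, with no homozygous group. All of the groups came from total RNA and a low-input cDNA kit. The labels give no strain, no adult age and no description of the allele, and they do not say how much flanking DNA of another origin a mutant chromosome may carry. Libraries are named here by genotype, labelled sex and the number in their label (Het F07). Nothing in the labels ties the libraries to separate litters. The p-values rest on the spread between these samples that was left after the authors adjusted the values.

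Myt1l codes for a neuronal zinc finger protein that binds DNA at a short AAGTT core and is best known for holding down non-neuronal genes as a transcription factor. Genes that lie close together can share promoters, enhancers and chromatin domains, and a modified chromosome is inherited together with the DNA that flanks the modified gene. For both reasons the neighbours of a targeted gene are read separately from the rest of the genome in knockout work.

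On the mm10 assembly Myt1l spans chr12:29528384-29923213 on the plus strand. The nearest member is Pxdn at chr12:29937608-30017658, which starts 14.4 kb after the end of Myt1l. It encodes peroxidasin, a secreted heme peroxidase that cross-links collagen IV of basement membranes. Next come Sntg2 at chr12:30174482-30373375, which encodes a syntrophin scaffold of the dystrophin complex, and Tmem18 at chr12:30584426-30591215, which encodes a small membrane protein of the nuclear envelope. Acp1 at chr12:30893326-30911589 encodes the low-molecular-weight protein tyrosine phosphatase, and Sh3yl1 at chr12:30911668-30960162 encodes a phosphoinositide-binding adaptor with an SH3 domain. On the other side lie Trappc12 at chr12:28690628-28750472, a subunit of the TRAPP complexes of vesicle traffic, Adi1 at chr12:28675231-28682175, an enzyme of methionine salvage, and Rnaseh1 at chr12:28649602-28659589, the nuclease that removes RNA from RNA-DNA hybrids. Ttc32 at chr12:9029997-9041988, which encodes a tetratricopeptide repeat protein, lies 20.5 Mb before Myt1l. All 9 are protein-coding.

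Acp1 and Sh3yl1 start head to head with 78 bases between the annotated genes, and Trappc12 starts head to head with Eipr1, a gene of vesicle tethering, with 1330 bases between them. Their start regions are shown because Sh3yl1 and Trappc12 are 2 of the 3 members that passed a test. RefSeq windows (GRCm38.p6, from 250 bases before to 50 after the start) were held for 6 of the 9 members, and for Adi1, Rnaseh1 and Ttc32 none was used here. The windows of Acp1 (chr12:30911563-30911862, minus strand) and Sh3yl1 (chr12:30911419-30911718, plus strand) share 156 bases, which are in capitals in both, each read 5′ to 3′ on its own strand. The other windows belong to Trappc12 (chr12:28750351-28750650, minus strand) and Eipr1 (chr12:28751569-28751868, plus strand), where capitals mark AAGTT or its reverse complement AACTT.
Acp1: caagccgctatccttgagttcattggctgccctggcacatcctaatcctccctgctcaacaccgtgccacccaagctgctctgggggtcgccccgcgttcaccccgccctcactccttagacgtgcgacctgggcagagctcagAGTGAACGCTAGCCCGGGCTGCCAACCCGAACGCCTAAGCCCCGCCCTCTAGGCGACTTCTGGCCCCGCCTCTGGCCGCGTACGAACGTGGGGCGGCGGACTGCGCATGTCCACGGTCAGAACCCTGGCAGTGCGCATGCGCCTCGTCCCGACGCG
Sh3yl1: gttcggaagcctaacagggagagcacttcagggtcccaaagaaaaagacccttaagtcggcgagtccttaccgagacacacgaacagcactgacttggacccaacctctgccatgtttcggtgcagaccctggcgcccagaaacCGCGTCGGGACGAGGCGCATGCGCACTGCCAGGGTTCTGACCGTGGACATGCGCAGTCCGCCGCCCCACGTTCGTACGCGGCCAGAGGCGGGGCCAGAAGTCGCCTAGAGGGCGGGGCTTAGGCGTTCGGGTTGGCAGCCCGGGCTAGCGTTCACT
Trappc12: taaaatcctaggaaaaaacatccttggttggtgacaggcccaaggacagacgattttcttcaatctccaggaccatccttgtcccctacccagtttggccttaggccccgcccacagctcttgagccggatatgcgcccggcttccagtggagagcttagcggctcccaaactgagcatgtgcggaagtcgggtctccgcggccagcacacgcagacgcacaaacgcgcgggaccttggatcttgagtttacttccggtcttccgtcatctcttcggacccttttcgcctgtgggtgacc
Eipr1: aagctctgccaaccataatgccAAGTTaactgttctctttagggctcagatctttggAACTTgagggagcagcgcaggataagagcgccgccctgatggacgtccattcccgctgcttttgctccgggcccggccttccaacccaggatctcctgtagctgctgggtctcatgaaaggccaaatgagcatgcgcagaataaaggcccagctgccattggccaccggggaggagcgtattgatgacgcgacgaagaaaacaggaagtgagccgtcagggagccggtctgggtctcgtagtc
AAGTT, searched on both strands, was found in the windows of 1 of the 6 members, Tmem18, and in 39.3% of all 32851 windows of the same length. The window of Eipr1, which is not a member, held 2 matches. A match is only a run of letters, and these libraries did not measure binding. The members' windows held 12 to 29 CpG dinucleotides, against a median of 7 over all windows.

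The deposited values allow no raw depth per library to be read, because the adjustment made by the authors brought the upper quartile to 5.35 on the log2 scale in all 16 E14.5 libraries and to 5.68 in all 12 PFC libraries. Myt1l itself was set against the labels, in CPM, a count scaled for library size. At E14.5 it measured 55.5 ± 8.16 CPM in WT (SD, n = 6), 42.8 ± 11.1 in Het (SD, n = 6) and 20.2 ± 2.35 in Hom (SD, n = 4). The Hom libraries lay below all others, whereas 3 of the 6 Het libraries lay inside the WT range. Het F02, at 59.5 CPM, lay above the WT mean. In the limma fit described below, Myt1l did not pass in Het against WT (log2 change -0.39, adjusted p = 0.125). Its level thus does not settle the label of each Het library. The PFC libraries gave 158 ± 8.48 CPM of Myt1l for WT (SD, n = 6) and 114 ± 6.70 for Het (SD, n = 6), with no overlap. Markers of the cortex were present at E14.5. Summed over 12 genes, they ran from 1995 to 2422 CPM in WT, 2085 to 2828 in Het and 2394 to 2723 in Hom. Of these 12, 3 passed as higher in Hom and 3 in Het, against 3.23% and 2.84% of all tested genes. Markers of the ventral telencephalon and striatum, 6 of them listed, summed to 11.1 to 17.9 CPM in WT. Their sums were 13.5 to 32.4 CPM in Het and 15.9 to 33.3 in Hom, and of 5 tested 1 was higher in Hom and 0 in Het. The part of these differences in the members' changes was not tested. At E14.5 the library labelled Het F10 held 58.7 CPM of Y-linked transcripts and the library labelled Het M11 held 0, against their labelled sexes.

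Members differed widely in their level per length, given as CPM per kilobase (kb) of the longest annotated transcript. In E14.5 WT libraries the order was Acp1 at 68.5 ± 2.58, Adi1 at 20.7 ± 3.03, Trappc12 at 15.0 ± 1.13, Rnaseh1 at 9.27 ± 0.557, Tmem18 at 8.00 ± 0.780, Sh3yl1 at 4.46 ± 0.440, Pxdn at 2.40 ± 0.242 and Ttc32 at 2.11 ± 0.440 CPM per kb (SD, n = 6). Rnaseh1 and Tmem18 overlapped in this order, as did Pxdn and Ttc32, and the other neighbours in the order did not. In PFC WT libraries Acp1 (56.1 ± 3.27), Adi1 (33.5 ± 1.65) and Trappc12 (15.1 ± 1.48) again led, and Sntg2 (1.496 ± 0.298) and Pxdn (1.28 ± 0.154) were lowest in CPM per kb (SD, n = 6). The tables were normalized separately, so no level was tested between them. Acp1 overlaps the gene Alkal2 by 529 bases on the other strand, and whether counting used strand is not given in the sources used here. Alkal2 itself was not listed at E14.5 and averaged 0.578 CPM in PFC WT.

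At E14.5, 3 members changed in at least 1 mutant group: Ttc32 and Sh3yl1 were higher and Trappc12 was lower. In Hom against WT 2 of 8 tested members passed, 1 higher and 1 lower, where 7.6% of all 12429 tested genes passed, 3.23% higher and 4.37% lower. In Het against WT 3 of 8 passed, 2 higher and 1 lower, where 5.83% of all genes passed, 2.84% higher and 2.98% lower. Apart from Ttc32, which lies far from Myt1l, 1 member passed in Hom and 2 in Het. The members were chosen with earlier results of these data known. Setting these counts beside the shares over all genes is thus a description and not a test of the set. Centring each library on its median changed the split over all genes from 401 higher and 543 lower to 294 and 746 in Hom, and from 353 and 371 to 213 and 509 in Het. Under that centring Ttc32 passed in Hom and Trappc12 in both groups, and Sh3yl1 (adjusted p = 0.0567) and Ttc32 (adjusted p = 0.0538) missed the threshold in Het. The median log2 change of the members was 0.036 in Hom and 0.074 in Het, beside 0.016 and 0.029 over all tested genes. Both comparisons use the same 6 WT libraries, so their values are given side by side and not as support for each other. Tests used limma on log2(CPM + 0.5) with p-values adjusted by Benjamini-Hochberg over all tested genes, and a gene passed at an adjusted p under 0.05.

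**Figure D1:**
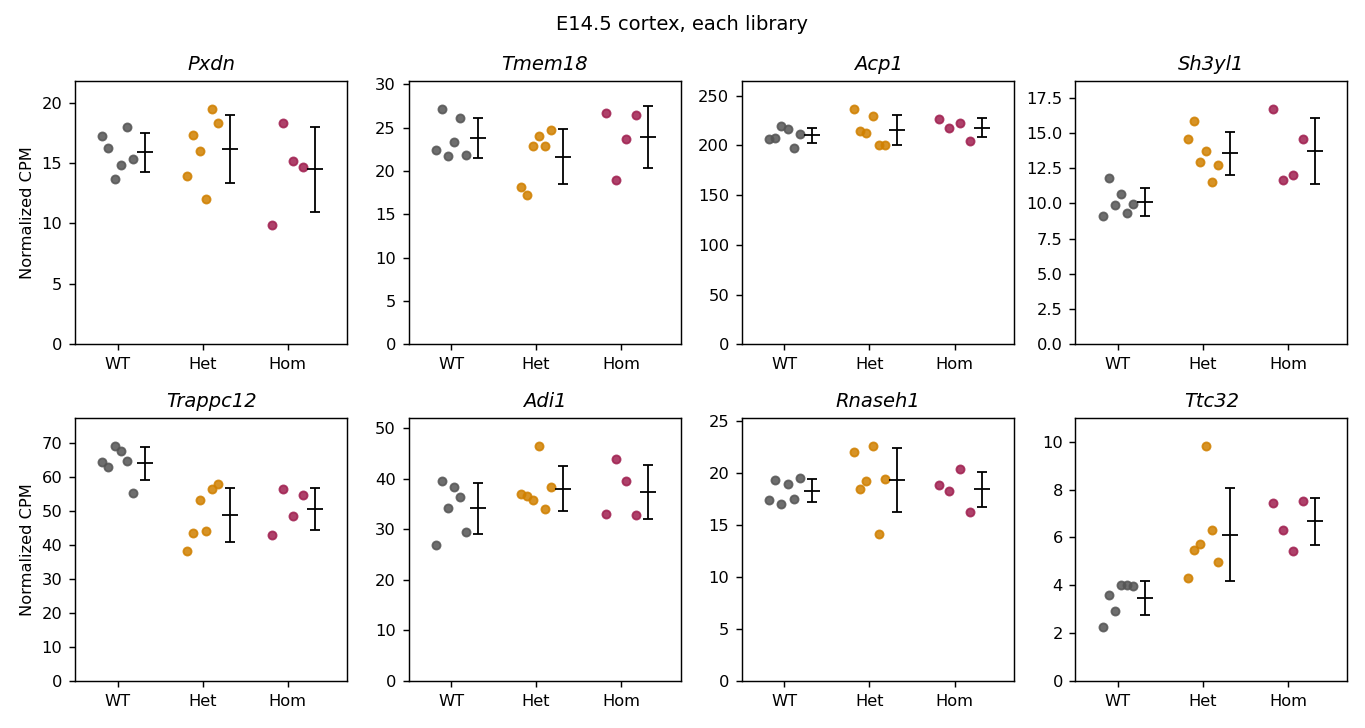
Normalized CPM (vertical axes, from 0) of the 8 listed members in each E14.5 library, by genotype; each point is 1 library, and the black mark and bar give the mean and SD (WT and Het n = 6, Hom n = 4). The Het and Hom points of Ttc32 lie above all WT points, those of Trappc12 lie mostly below WT, and the groups of Pxdn, Tmem18, Acp1, Adi1 and Rnaseh1 overlap.

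Ttc32, the member farthest from Myt1l, had the largest change among the 8. Its WT libraries ran from 2.27 CPM through a median of 3.79 to 4.02. The Het libraries ran from 4.31 through 5.61 to 9.83 CPM, and the Hom libraries measured 7.45 (F01), 6.31 (F04), 5.44 (F09) and 7.51 (M02) CPM. Every mutant library thus lay above every WT library, a separation seen for 9.9% of all tested genes in Hom against WT and for 2.57% in Het against WT. The log2 change was 0.84 in Hom (SE 0.19, 95% interval 0.44 to 1.24, adjusted p = 0.0107) and 0.62 in Het (SE 0.18, 0.24 to 0.99, adjusted p = 0.0453). The Hom call held under all 30 alternative settings. The Het call held under 10 of 30 and was lost, with adjusted p from 0.0504 to 0.128, when any of Het F02, F07, F10 or M01, WT F04, F05, F06 or M03, or Hom F01, F04 or M02 was left out. Without the libraries labelled Het F10 and Het M11 the Het change was 0.65 (adjusted p = 0.0435).

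Ttc32 is a low gene, and its 3.46 ± 0.723 CPM in WT (SD, n = 6) stood well above the 0.102 CPM that 3 steps of the deposited values are worth. Libraries differed in the prefix of their identifier, of which there were 2 at E14.5. Within the prefix that held 4 WT, 4 Het and 3 Hom libraries, Ttc32 differed from WT by 0.74 in Hom and 0.49 in Het in mean log2(CPM + 0.5). Within the other prefix, with 2 WT, 2 Het and 1 Hom library, the differences were 1.18 and 1.16. With the prefix as a block in the fit the Hom call held (adjusted p = 0.0135) and the Het call was lost (adjusted p = 0.0556). Wdr35, a gene of intraflagellar transport that ends 1149 bases before Ttc32, measured 32.4 ± 3.55 CPM in WT, 27.8 ± 4.63 in Het (SD, n = 6 each) and 28.7 ± 6.60 in Hom (SD, n = 4). It did not pass in either comparison, and neither did Pum2, Sdc1 or Laptm4a, the other tested genes within 0.5 Mb of Ttc32. The log2 ratio of Ttc32 to Wdr35 within a library averaged -3.07 ± 0.39 in WT, -2.13 ± 0.43 in Het (SD, n = 6 each) and -2.01 ± 0.46 in Hom (SD, n = 4). It lay above all WT libraries in 5 of 6 Het and 3 of 4 Hom libraries. This ratio and the others below were chosen after their values were seen, so they are given as descriptions with no test.

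Markers of the choroid plexus, which adjoins the embryonic cortex, varied between libraries. The 7 listed of 8 summed to 1409 to 4001 CPM in WT, 3009 to 5225 in Het and 1598 to 2895 in Hom, with none at 0 and 0 of 7 past the test in Hom or Het. In bulk RNA, fewer cells of a type and less RNA per cell cannot be told apart. The 13 mitochondrially encoded transcripts summed to 6097 to 9252 CPM in WT, 6795 to 11381 in Het and 7006 to 11226 in Hom, and of 11 tested 4 were higher in Het and 2 in Hom. The part of either in the changes of Ttc32, Trappc12 and Sh3yl1 was not tested.

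Trappc12, 0.778 Mb before Myt1l, was lower in both mutant groups. The WT libraries ran from 55.5 CPM through a median of 64.7 to 69.3. The Het libraries ran from 38.4 through 48.7 to 58.0 CPM, and the Hom libraries measured 42.9 (F01), 56.5 (F04), 48.5 (F09) and 54.8 (M02) CPM. All 6 Het and all 4 Hom libraries lay below the WT mean of 64.2 CPM, but 2 Het libraries and 1 Hom library lay inside the WT range, whose lowest library was WT M03. The log2 change was -0.43 in Het (SE 0.10, 95% interval -0.64 to -0.22, adjusted p = 0.0158) and -0.35 in Hom (SE 0.11, -0.57 to -0.12, adjusted p = 0.0489). These correspond to 0.743 and 0.785 times the WT level.

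The Het call on Trappc12 held under 27 of 30 alternatives and was lost without Het F02 (adjusted p = 0.0698), without Het F07 (adjusted p = 0.0741) and in a fit with no trend and robust settings. Without the libraries labelled Het F10 and Het M11 its log2 change was -0.52 (adjusted p = 0.00575). The Hom call held under 14 of 30 and was lost, with adjusted p from 0.0520 to 0.184, without any of Hom F01, F09 or M02, WT F04, F05, F06, F09 or F12, or Het F07. Within the prefix of 4 WT, 4 Het and 3 Hom libraries Trappc12 differed from WT by -0.31 in Het and -0.36 in Hom, and within the prefix of 2 WT, 2 Het and 1 Hom library by -0.59 and -0.27. The prefix as a block kept the Het call (adjusted p = 0.0192) and ended the Hom call (adjusted p = 0.0567).

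Eipr1, the head-to-head neighbour of Trappc12, measured 71.4 ± 2.66 CPM in WT, 66.4 ± 4.61 in Het (SD, n = 6 each) and 61.6 ± 5.73 in Hom (SD, n = 4). It did not pass in Hom (log2 change -0.21, adjusted p = 0.0948) or Het (-0.096, adjusted p = 0.477). The log2 ratio of Trappc12 to Eipr1 within a library averaged -0.16 ± 0.14 in WT, -0.45 ± 0.27 in Het (SD, n = 6 each) and -0.28 ± 0.29 in Hom (SD, n = 4). It lay below all WT libraries in 4 of 6 Het libraries and 1 of 4 Hom libraries.

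Sh3yl1, at the far end of the cluster, was higher in Het. Its WT libraries ran from 9.07 CPM through a median of 9.89 to 11.8. The Het libraries ran from 11.5 through 13.3 to 15.9 CPM, and the Hom libraries measured 16.7 (F01), 11.7 (F04), 12.0 (F09) and 14.54 (M02) CPM. In each mutant group only 1 library lay inside the WT range. The log2 change was 0.42 in both, with SE 0.12 and adjusted p = 0.0445 in Het and SE 0.13 and adjusted p = 0.0518 in Hom, so that Sh3yl1 passed in Het and not in Hom with the same size of change. The Het call held under 13 of 30 alternatives and was lost, with adjusted p from 0.0503 to 0.164, without any of Het F02, F07 or M01, WT F04, F06, F09, F12 or M03, or Hom M02. Without the libraries labelled Het F10 and Het M11 the Het change was 0.46 (adjusted p = 0.0435). The prefix as a block also ended it (adjusted p = 0.0555). The Hom value passed with limma-voom (adjusted p = 0.0309), with a filter of 5 CPM (0.0418) and without WT F05 (adjusted p = 0.0417), Het M07 (0.0458) or Het M11 (0.0499).

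Acp1, which shares 156 bases of start region with Sh3yl1, did not pass. It measured 198 to 220 CPM in WT with a median of 210, and 200 to 236 CPM in Het with a median of 214. The Hom libraries measured 226 (F01), 218 (F04), 222 (F09) and 204 (M02) CPM. Its log2 change was 0.056 in Hom (95% interval -0.076 to 0.19) and 0.057 in Het (-0.067 to 0.18). The log2 ratio of Sh3yl1 to Acp1 within a library averaged -4.32 ± 0.13 in WT, -3.95 ± 0.12 in Het (SD, n = 6 each) and -3.95 ± 0.24 in Hom (SD, n = 4). All 6 Het libraries and 2 of 4 Hom libraries lay above all WT libraries.

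The other 4 members tested at E14.5 did not pass in either mutant group. Pxdn, the nearest to Myt1l, ran from 13.7 to 18.02 CPM in WT and from 12.0 to 19.5 CPM in Het, and measured 9.84 (F01), 18.4 (F04), 15.1 (F09) and 14.6 (M02) CPM in Hom. Its log2 change was -0.16 in Hom (95% interval -0.47 to 0.16) and 0.0057 in Het (-0.29 to 0.30). A change of the size seen in Ttc32 lay outside both intervals. The change of Trappc12 lay inside the Pxdn interval in Hom (-0.35) and outside it in Het (-0.43). Tmem18 ran from 21.7 to 27.1 CPM in WT, from 17.3 to 24.7 in Het and from 19.0 to 26.7 in Hom, with log2 changes of -0.19 in Het (-0.42 to 0.039) and -0.0092 in Hom (-0.25 to 0.24).

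Adi1 ran from 27.0 to 39.6 CPM in WT, from 34.0 to 46.5 in Het and from 32.9 to 43.9 in Hom, and its log2 changes were 0.18 in Het (adjusted p = 0.345) and 0.13 in Hom (adjusted p = 0.521). Rnaseh1 ran from 17.0 to 19.5 CPM in WT, from 14.1 to 22.6 in Het and from 16.2 to 20.3 in Hom, and its log2 changes were 0.090 in Het (adjusted p = 0.689) and 0.015 in Hom (adjusted p = 0.961). Adi1 and Rnaseh1 lie just beyond Trappc12 as seen from Myt1l, and neither passed where Trappc12 did. Whether Trappc12 differed from either of them in its change was not tested.

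Hom against Het, which uses no WT library in the contrast, gave 0 members past the threshold with limma and 0 with limma-voom. Over all 12429 tested genes 0 passed with limma-voom and 1 with limma (0.00805%). That gene was Myt1l itself, with a log2 change of -1.04 (limma adjusted p = 0.0382). Ttc32 differed between Hom and Het by 0.23 (95% interval -0.18 to 0.64), Trappc12 by 0.079 (-0.15 to 0.31) and Sh3yl1 by -0.0037 (-0.28 to 0.28). No member's Hom and Het libraries were separate, against 0.901% of all genes. Over Myt1l copies, a departure of Het from the midpoint of WT and Hom passed for 0 members and 0% of all genes, with 1 member and 9.49% of all genes at an unadjusted p under 0.05. That member was Trappc12, with a departure of 0.51 on the log2 scale (WT plus Hom minus 2 times Het, unadjusted p = 0.0108, adjusted p = 0.405).

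**Figure D2:**
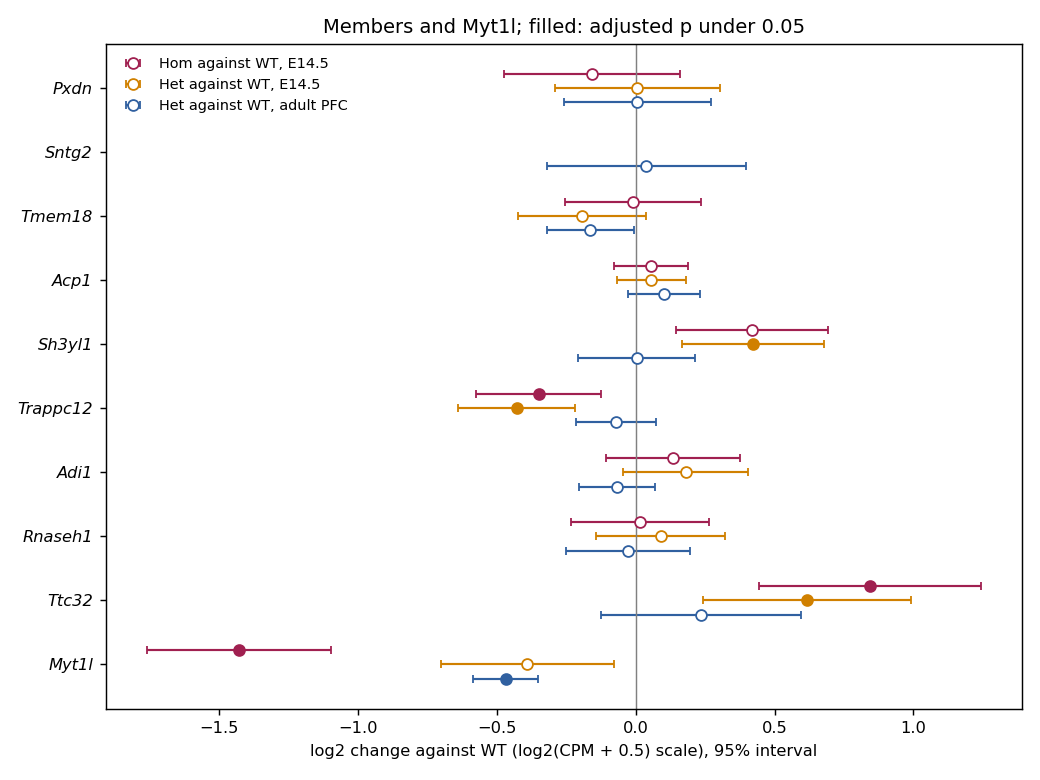
Log2 change against WT (horizontal axis, log2(CPM + 0.5) scale) of the members and Myt1l in 3 comparisons; points are limma estimates, bars are 95% intervals, and filled points have an adjusted p under 0.05. Ttc32 lies at 0.84 in Hom and Trappc12 at -0.43 in Het at E14.5, whereas no member's point is filled in the adult PFC.

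Genes around Myt1l passed the test in both directions. Within 1 Mb of Myt1l, 9 genes were tested at E14.5, and 1 of them passed in Hom (Trappc12) and 3 in Het (Trappc12, Sh3yl1 and Rps7). Over all tested genes 7.6% passed in Hom and 5.83% in Het. Most of the genes within 1 Mb are members, which were chosen with earlier results known. The window counts are thus descriptions and not tests. Rps7, a ribosomal protein gene beside Rnaseh1, averaged 3008 ± 176 CPM over WT (SD, n = 6) and 3593 ± 347 over Het libraries (SD, n = 6), with a log2 change of 0.28 (adjusted p = 0.0163). Within 2 Mb the same named genes were the ones that passed, 1 of 16 in Hom (6.25%) and 3 of 16 in Het (18.75%), with median log2 changes of -0.034 and 0.035. Within 10 Mb, 3 of 49 genes passed in each comparison (6.12%): Cpsf3, Ywhaq and Trappc12 in Hom, and Rps7, Trappc12 and Sh3yl1 in Het. On the whole of chromosome 12, 33 of 426 genes (7.75%) passed in Hom and 24 (5.63%) in Het, close to the shares over all genes. Among the genes within 1 Mb that passed in Het, 2 were higher and 1 was lower, and Pxdn, at 14.4 kb, was not among them.

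**Figure D3:**
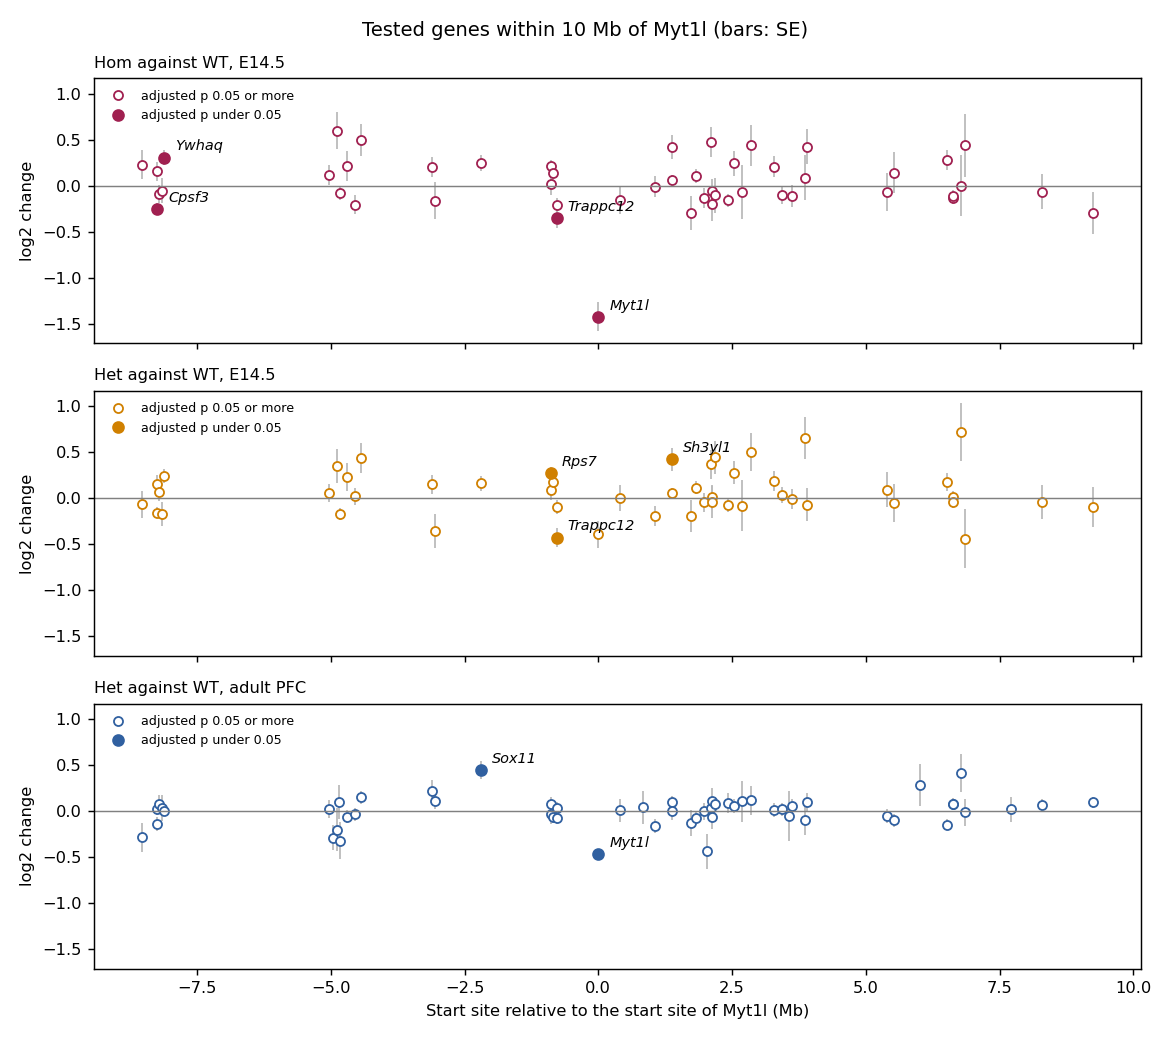
Log2 change (vertical axes) of the tested genes within 10 Mb of Myt1l against the position of their start site relative to that of Myt1l in Mb (horizontal axis), in 3 comparisons; bars are SE, and filled, named points have an adjusted p under 0.05. Genes on both sides of Myt1l scatter around 0, and the members that passed, Trappc12 and Sh3yl1, lie on opposite sides and have opposite signs.

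In the adult PFC 0 members passed in Het against WT with limma or limma-voom, and 0.404% of all 12870 tested genes did. The median log2 change of the 9 members was 0.0037, beside 0.013 over all genes. No member separated the genotypes, against 0.668% of all genes, and 1 member had an unadjusted p under 0.05, against 13.6% of all genes. That member was Tmem18, which ran from 27.7 CPM through a median of 29.7 to 32.04 in WT and from 23.4 through 27.0 to 28.4 in Het. All 6 Het libraries lay below the WT mean, 2 of them inside the WT range, and the log2 change was -0.16 (95% interval -0.32 to -0.0076, unadjusted p = 0.0406, adjusted p = 0.336).

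The 3 members that passed at E14.5 had no call in the adult. Ttc32 ran from 3.23 CPM through 3.83 to 4.12 in WT and from 3.12 through 4.70 to 6.94 in Het, with 4 of 6 Het libraries above all WT libraries and 2 below all of them. Its log2 change was 0.24 (95% interval -0.12 to 0.60, adjusted p = 0.573). Trappc12 ran from 58.1 through 62.0 to 75.1 CPM in WT and from 50.6 through 62.4 to 71.9 in Het, a log2 change of -0.071 (-0.22 to 0.074). Sh3yl1 ran from 17.2 through 19.4 to 24.8 CPM in WT and from 17.8 through 19.8 to 24.6 in Het, a log2 change of 0.0037 (-0.21 to 0.21). The embryo and the adult were not tested against each other, since their tables were normalized separately.

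The other 5 members overlapped between PFC genotypes. Sntg2, the member listed in the adult alone, ran from 2.54 to 4.37 CPM in WT and from 2.60 to 4.83 in Het, with a log2 change of 0.039 (95% interval -0.32 to 0.40). Acp1 ran from 161 to 188 CPM in WT and from 155 to 217 in Het, with 5 of 6 Het libraries above the WT mean and a log2 change of 0.10 (-0.026 to 0.23). Pxdn ran from 6.97 to 9.97 CPM in WT and 6.45 to 9.99 in Het. Adi1 ran from 52.4 to 59.4 CPM in WT and 48.7 to 59.2 in Het, and Rnaseh1 from 8.62 to 13.8 in WT and 10.3 to 13.2 in Het. Of the 10 tested genes within 1 Mb of Myt1l none passed in the PFC, and within 5 Mb 1 of 40 did, Sox11, a transcription factor of immature neurons (log2 change 0.44, adjusted p = 0.0426).

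**Figure D4:**
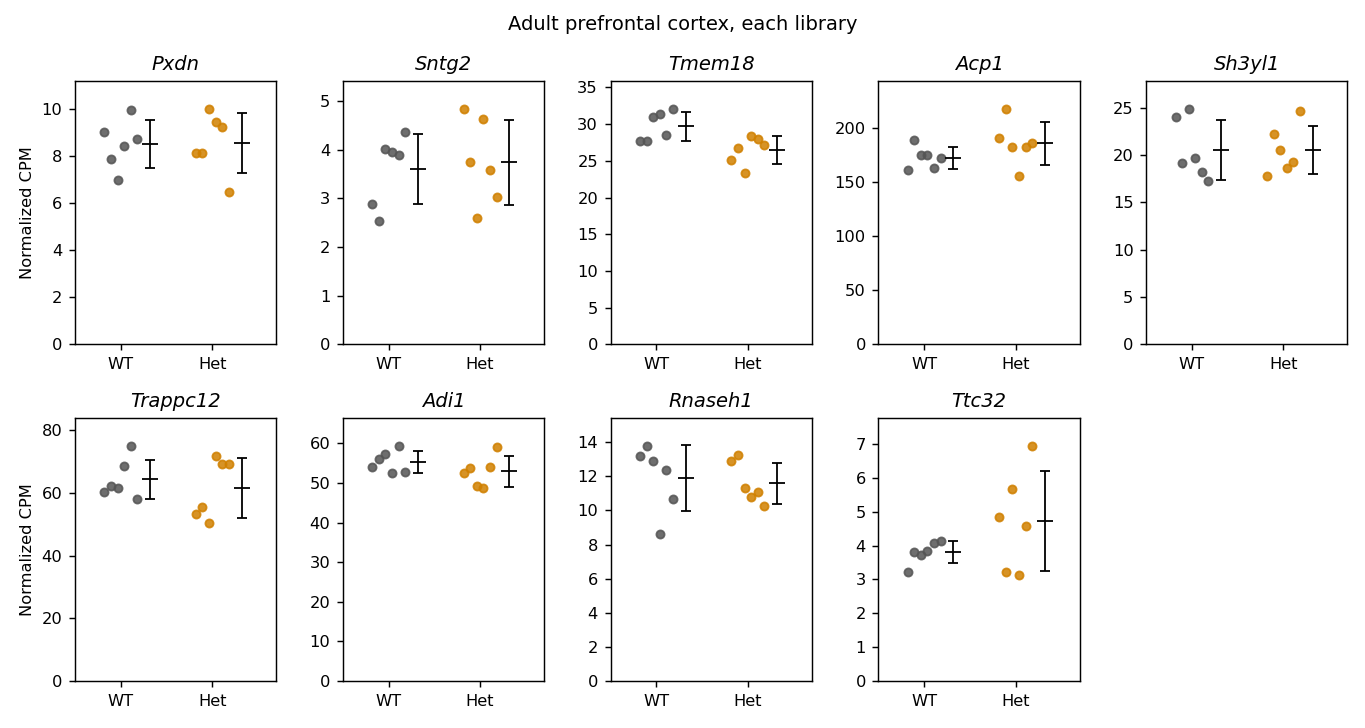
Normalized CPM (vertical axes, from 0) of the 9 members in each adult PFC library, by genotype; each point is 1 library, and the black mark and bar give the mean and SD (n = 6 each). The Het and WT ranges overlap for all 9 members, although the Het points of Ttc32 lie above (4) or below (2) all of its WT points, with Tmem18 at 23.4 to 28.4 CPM in Het against 27.7 to 32.04 in WT.

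Each PFC genotype held 3 libraries labelled female and 3 labelled male, and the genotype change was compared between them by an interaction term. The prefix of the identifiers went partly with sex: the prefix of 2 WT and 2 Het libraries held only males. The prefix of 3 WT and 4 Het libraries held both sexes, and 1 WT female had a prefix of its own. Sex and prefix cannot be fully told apart in this comparison. No member passed, nor did any gene (0%), while 8.48% of all genes had an unadjusted p under 0.05. The 1 member among these was Trappc12, with an interaction of 0.27 on the log2 scale (95% interval 0.0066 to 0.54, unadjusted p = 0.0451, adjusted p = 0.57). In females Trappc12 averaged 61.5 ± 1.04 CPM in WT and 53.2 ± 2.46 in Het, and in males 67.3 ± 8.55 in WT and 70.1 ± 1.56 in Het (SD, n = 3 each). The WT males of the all-male prefix had 68.6 (M03) and 75.1 CPM (M07), and the other WT male (M11) had 58.1. The Het males of that prefix had 71.9 (M05) and 69.2 CPM (M08), and the other Het male (M09) had 69.2. All 3 Het females lay below the WT female mean and all 3 Het males above the WT male mean. Sh3yl1 showed the same arrangement of libraries, at 22.7 ± 3.06 in WT and 20.2 ± 2.23 CPM in Het females and 18.3 ± 1.24 in WT and 20.8 ± 3.32 CPM in Het males (SD, n = 3 each), with an interaction of 0.33 (adjusted p = 0.664).

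Partners of the members' proteins were counted on lists made from textbook pathways, with earlier results of these data known. Their counts beside the shares over all genes are thus descriptions and not tests of the lists. Of 13 tested TRAPP genes other than Trappc12, 3 passed in Hom against WT, where 7.6% of all tested genes did: Trappc9, a subunit of TRAPPII, was lower (mean CPM 56.1 in WT and 43.4 in Hom, log2 change -0.39, adjusted p = 0.0192), and the core subunits Trappc2 (0.32, adjusted p = 0.0361) and Trappc6b (0.47, adjusted p = 0.0414) were higher. In Het, where 5.83% of all genes passed, Trappc9 was lower (-0.34, adjusted p = 0.0353) and Trappc2 higher (0.34, adjusted p = 0.0241), and Trappc6b had a log2 change of 0.25 (adjusted p = 0.28). The median log2 change of the TRAPP list was 0.00053 in Hom and 0.069 in Het. None passed in the PFC.

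Of 7 genes that process RNA-DNA hybrids beside Rnaseh1, 2 were lower in Hom, where 4.37% of all genes were lower: the topoisomerase gene Top3b (log2 change -0.63, adjusted p = 0.0033) and the helicase gene Aqr (-0.32, adjusted p = 0.0338), and none passed in Het. Of 12 genes of methionine metabolism beside Adi1, 3 were lower in Hom, against the same 4.37% of all genes: the aspartate aminotransferase genes Got2 (-0.41, adjusted p = 0.0022) and Got1 (-0.32, adjusted p = 0.0092), and Ahcy, which hydrolyses S-adenosylhomocysteine (-0.39, adjusted p = 0.0103). In Het, where 2.98% of all genes were lower, Got2 (-0.33, adjusted p = 0.0065) and Mat2a, which makes S-adenosylmethionine (-0.22, adjusted p = 0.0432), were lower. Of 14 tested genes of basement membranes, the substrate of peroxidasin, none passed in Hom or Het, with medians of -0.28 and -0.16. Of the genes of the dystrophin and syntrophin complex, to which Sntg2 belongs, none of 11 tested passed at E14.5. In the PFC no gene of these lists passed, with 7 to 13 tested on each.

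Over the 16 E14.5 libraries, the 3 members that passed were described by the genes whose levels followed them most closely, as Pearson's r of log2(CPM + 0.5) across libraries that include the genotype groups themselves. Ttc32 was followed by Cdo1 (r = 0.94), Ccdc107 (0.90) and Nfkbie (0.89), Trappc12 by Wnt8b (0.90), Ubr4 (0.90) and Wdr6 (0.88), and Sh3yl1 by Fam133b (0.93), Bet1 (0.93) and Krcc1 (0.93). None of these 9 genes lies on chromosome 12, which holds 426 of the 12429 tested genes, Myt1l left aside. So small a share gives the absence no weight. Among the members, Sh3yl1 and Trappc12 had r = -0.81, Sh3yl1 and Ttc32 r = 0.71, and Sh3yl1 and its head-to-head neighbour Acp1 r = 0.43.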

How the data were processed

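The series holds 28 mouse libraries: 16 of E14.5 cortex and 12 of adult PFC. The authors deposited 1 table per tissue of log2 CPM values with a row per gene, after an adjustment for unwanted variation with RUVr, as the deposited tables are named. The submitters' processing notes name Trimmomatic, Bowtie2, STAR, HTSeq and the mm10 build, without versions or roles. The deposited values have 1 lowest value and 1 upper quartile in every library of a table, so raw depth is unknown. The RUVr step left 2 directions in the E14.5 table and 1 in the PFC table with almost no spread, so the spread between libraries may be understated.

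CPM was recovered as 2 to the power of the value minus the same power of the lowest value. In every library 100% of the values were then whole multiples of a step, within 0.01, as values built from whole numbers give. One step was worth 0.0339 CPM at E14.5 and 0.0489 CPM in the PFC (medians), and these whole numbers are adjusted values and not reads. Genes with at least 1 CPM in 4 E14.5 or 6 PFC libraries were tested with limma 3.58.1 (R 4.3.3) on log2(CPM + 0.5), with terms for genotype and labelled sex, eBayes with trend and robust settings, and Benjamini-Hochberg adjustment over all tested genes. Each table had its own fit. Fold changes on this scale understate those of low genes. The test was tested on simulated data. Log2 ratios of 2 genes within a library are descriptions. Positions come from GENCODE vM21 (mm10), matched by symbol or identifier for 13840 of 13846 and 14098 of 14104 genes, and start windows from RefSeq.

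The genes named are the members, Myt1l, tested genes within 1 Mb of Myt1l or 0.5 Mb of Ttc32, up to 3 genes with the lowest p from each partner list, and the 3 genes most like each member that passed; Sox11, Cpsf3 and Ywhaq were named after their values were seen. Members and lists were chosen with earlier results of these data known. Alternatives changed the pseudocount (0.1 and 2 CPM), the filter (none and 5 CPM), the scaling, a GC and length correction, limma-voom, the covariates, the prior and the libraries. Sntg2 was not analysed at E14.5.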

Additional observations from a re-analysis of the deposited data

Results flagged for a closer look

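In 2 of 42 groups of libraries, 1 library stood apart from the others of its group by Dixon's test, where chance flags about 1 group in 20. Both were the E14.5 library Het M01. Its Adi1 level was 46.5 CPM, and the next highest Het library had 38.4 CPM. Its Ttc32 level was 9.83 CPM, and the next highest Het library had 6.31 CPM. Without Het M01 the log2 change of Ttc32 in Het against WT was 0.53, with a limma adjusted p of 0.0864 by Benjamini-Hochberg.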

How the results depend on the processing

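The limits are these. The calls on Sh3yl1 and Ttc32 in Het and on Trappc12 in Hom had adjusted p-values between 0.0445 and 0.0489, and 16 to 20 of the 30 alternatives ended each of them. The changes of these 3 members kept their sign under all 30 alternatives in both mutant groups. For members near a change of 0 a sign carries no weight. Raw depth is unknown, so no counting interval was given. No paired analysis was possible because the numbers in the labels name libraries and are not shared replicates. Causes of the shifts below were not tested.

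In Hom against WT at E14.5, 2 members passed, and 1 passed with no filter, with the GC and length correction, with no trend and robust settings, with the identifier prefix as a block, with the removed RUVr directions as covariates and with no sex term. It was 3, Sh3yl1 added, with the 5 CPM filter, and 2 with limma-voom, Sh3yl1 and Ttc32. Leaving out 1 library at a time gave 1 to 3. The 1 gene within 2 Mb of Myt1l became 2 with the 5 CPM filter, with median centring, with only the groups compared and without the libraries against their labelled sex, 3 with limma-voom, and 0 with the GC and length correction, no trend and robust settings, the prefix block, the removed directions or no sex term. It was 3 within 10 Mb and 33 on all of chromosome 12, and 0 to 3 with 1 library left out. With no filter, and without WT F09, it stayed at 1 although Trappc12 and Sh3yl1 did not pass. The gene that passed there was not a member. In Het against WT, 3 members passed, and 1 passed with no filter, median centring, the GC and length correction, the prefix block, the removed directions, libraries labelled female alone or only the groups compared, and 0 with no trend and robust settings. Leaving out 1 library gave 0 to 3, with 0 when Het F02 or Het F07 was left out. The 3 genes within 2 Mb became 1 with the GC and length correction or labelled females alone and 0 with no trend and robust settings, 24 on all of chromosome 12, and 0 to 3 with 1 library left out. In the PFC the 0 genes within 2 Mb became 1 within 5 or 10 Mb and 2 on all of chromosome 12. Over all genes, limma-voom gave 706 higher and 364 lower calls in Hom against WT, in place of 401 and 543.

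Signs turned as follows. Acp1 had a log2 change of -0.042 in Hom and -0.056 in Het with the GC and length correction. Rnaseh1 in Hom had -0.018 with median centring and -0.037 with the GC and length correction. Tmem18 in Hom had 0.037 with limma-voom, 0.0040 with no sex term and 0.0021 with only the groups compared. Pxdn in Het had -0.024 with median centring, -0.033 without the libraries against their labelled sex and -0.019 in labelled females alone. Sh3yl1 in Hom against Het had 0.012 with the GC and length correction, 0.039 with limma-voom, 0.00088 with the prefix block and 0.013 with no sex term. In the PFC, Pxdn had -0.0077 with median centring, -0.034 with the GC and length correction, -0.0075 with limma-voom and -0.12 in labelled males alone, Sh3yl1 had -0.011 with median centring, -0.0071 with limma-voom and -0.16 in labelled females alone, and labelled males alone gave 0.034 for Rnaseh1, -0.12 for Sntg2 and 0.067 for Trappc12. With 1 library left out, E14.5 log2 changes ran from -0.29 to 0.019 for Pxdn, from -0.086 to 0.087 for Tmem18 and from -0.028 to 0.065 for Rnaseh1 in Hom, and from -0.034 to 0.067 for Pxdn in Het. In Hom against Het they ran from -0.088 to 0.068 for Sh3yl1 and from -0.0013 to 0.14 for Trappc12, and the Hom ratio of Trappc12 to Eipr1 ran from -0.21 to 0.013. In the PFC they ran from -0.049 to 0.095 for Pxdn, from -0.061 to 0.11 for Sntg2, from -0.070 to 0.060 for Sh3yl1 and from -0.094 to 0.017 for Rnaseh1, and the interaction with sex ran from -0.36 to 0.16 for Ttc32. The departure from a straight line kept its sign for Trappc12, Sh3yl1 and Ttc32 under all 29 alternatives, and the interaction with sex for Trappc12 and Sh3yl1 under all 22.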
